A study of Mus musculus with 8 samples.

Results

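Retinas of mice kept for 7 days in high oxygen were compared with retinas of mice kept in normal air. The members were the probe sets of the array on which both day 7 arrays lay on one side of both control arrays, with lens crystallins and keratins set apart, and 11074 of the 44957 probe sets that name no crystallin or keratin met this rule (45037 in all). Of these, 5540 lay above the control arrays and 5534 below them. The day 7 retinas held less of many immediate early transcripts and of some subunits of the respiratory chain and the proteasome, and more of several Müller glia transcripts. For the respiratory chain list, the medians of the day 7 and control arrays overlapped. Lower too was *Egln3*, a prolyl hydroxylase of the hypoxia pathway, whose order over the arrays was that of several surface epithelium genes. Genes of that pathway as a list had no common direction. The differences were mostly under 2-fold. None of them passed the adjusted test over all probe sets, so each value below is a description of 4 arrays.

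RNA came from whole retinas of C57BL/6J mice, a common inbred strain with an intact retina, at an adult age of 80 to 120 days. All animals lived in cycles of dim light and darkness. The control mice had no added oxygen (day 0), and the exposed mice breathed 75% oxygen in a chamber for 3, 7 or 14 days, with 2 arrays for each time. RNA was pooled from the retinas of several males and females. No source states that both arrays at 1 exposure were made from different pools, and the spread that a p-value rests on may therefore be technical. A probe set is a group of short probes to a transcript, mostly near its 3' end, and several may measure 1 gene. The values are on the log2 scale relative to the median of each probe set over the 8 arrays, so they show differences between arrays and no level. A difference of 1 is 2-fold, and n is 2 arrays in each group throughout.

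Photoreceptors use more oxygen than most cells of the body, and the outer retina receives it from the choroid, whose flow does not fall when inspired oxygen is raised. Excess oxygen is toxic to photoreceptors of the mouse. Müller glia, which span the retina and recycle glutamate and visual pigment, take part in its response to stress, and immediate early genes are transcription factors and phosphatases that cells switch on within minutes of a stimulus. In high oxygen, prolyl hydroxylases mark the hypoxia-inducible factors (HIF) for degradation, and the transcription factor NRF2 drives genes that detoxify reactive oxygen.

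Over all 45037 probe sets, the day 7 arrays lay above both control arrays for 12.3% and below both for 12.3%. These were 11116 probe sets. The same rule held for more of them at the other exposures, 19141 at day 3 and 20728 at day 14. The count of members alone is therefore no measure of a response at day 7. Most of the gaps were narrow. The nearest day 7 and control arrays of the members lay over 0.1 apart for 3228 probe sets, over 0.25 for 415, over 0.5 for 46 (9 higher and 37 lower) and over 1 for 12 (2 higher and 10 lower). The median difference of means was 0.18 among the members above the controls and -0.18 among those below. At the edge of the rule, *Gin1* had control values of -0.26 and -1.53e-05 and day 7 values of 1.53e-05 and 0.15 and was a member, while *Tex13b* had control values of -0.06 and 0.01 and day 7 values of 0.13 and 0.01 and was not, with a margin of -3.53e-05. Members with so narrow a gap differ from other probe sets by less than the arrays of 1 group differ from each other.

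Means that differed by 2-fold or more were fewer, and the arrays of 1 group often disagreed. Of 79 probe sets with a day 7 mean at least 2-fold higher, 23 had arrays that did not overlap, and of 28 at least 2-fold lower, 25 did. Over all probe sets, crystallins and keratins included, 0.0777% lay 2-fold higher without overlap and 0.0777% lay 2-fold lower. In 51 of the 56 overlapping higher probe sets, the day 7 replicate 2 array was the highest of the 4 on its own. That array and day 7 replicate 1 differed from each other by 2-fold or more at 1942 probe sets, of which 1527 were higher on replicate 2, whereas the control arrays did so at 532. With limma, 0 of 45037 probe sets passed the adjusted threshold of 0.05 and the lowest adjusted p was 1, and 389 (193 higher and 196 lower) had an unadjusted p under 0.05. An analysis of variance on the 4 arrays alone also called 0 after adjustment.

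Markers of tissue next to the retina moved with the comparison. For the gene counts below, the shares over all genes were 19.4% with a probe set above both controls and 21.2% with one below. Of 18 crystallin probe sets, 14 lay above both controls, and of 15 measured lens genes other than crystallins, 10 did and none lay below, with the list's median at -0.23 and 0.09 on the control arrays and at 0.18 and 0.82 at day 7. Of 24 genes of the ocular surface epithelium other than keratins, 17 lay below both controls and 2 above, with medians of 0.07 and 0.49 on the control arrays and -0.09 and -0.20 at day 7. Of 14 genes of skin and eye muscle, 6 lay below and 2 above. The part of this tissue in the differences that follow was not tested. Since the values hold no level, summed levels and markers at 0 could not be given. Lists of retinal cells ranged from 14 cone genes, of which none was apart, to 14 ganglion cell genes with 6 below (42.9%). Of 18 Müller glia genes, 6 were above (33.3%) and none below, and of 7 astrocyte genes, 3 were above (42.9%) and 1 below. By the mean of a gene's probe sets, 3 ganglion cell genes were below, and 6 Müller glia and 2 astrocyte genes were above. The shares over all genes were then 12.1% above and 13.1% below. In whole tissue, fewer cells of a type and less RNA per cell cannot be told apart.

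**Figure D1:**
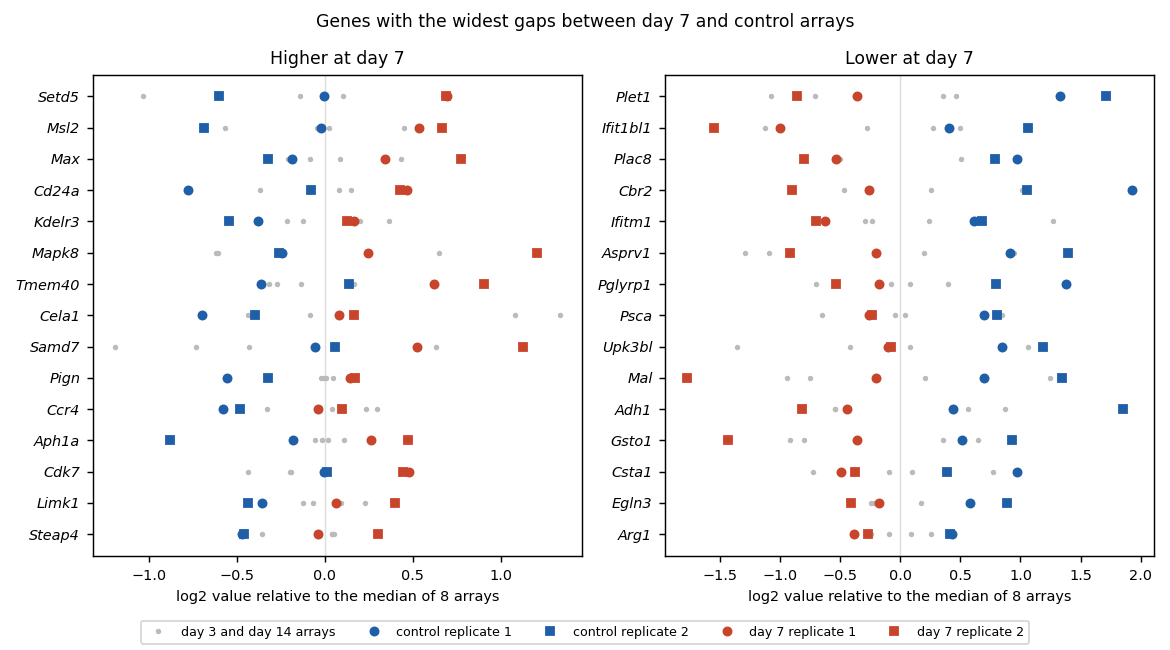
Log2 values (horizontal axis, relative to the median of each probe set over 8 arrays) of the 15 genes above and the 15 below the control arrays with the widest gaps among probe sets that name 1 gene outside the lists of lens, ocular surface, skin and muscle. Blue points are the control arrays, red points the day 7 arrays and grey dots the arrays of day 3 and day 14. The red points lie on one side of the blue ones in every row, since the genes were chosen that way, and the gaps run up to 0.69 among the higher genes and to -1.68 among the lower.

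Among probe sets that name 1 gene outside the lists of other tissues, the widest gap above the controls was that of *Setd5*, a chromatin regulator of the SET domain family. It was at -0.00 and -0.60 on the control arrays and at 0.69 on both day 7 arrays, a difference of 0.99 ± 0.37 (standard error from limma) with an adjusted p of 1. The day 7 arrays were also the highest of all 8, and 2 of the 3 probe sets of the gene lay above the controls. *Msl2*, a ubiquitin ligase of a histone acetyltransferase complex, was at -0.02 and -0.69 in control and at 0.54 and 0.67 at day 7, and *Max*, the partner of MYC on DNA, was at -0.19 and -0.32 and at 0.34 and 0.77. In both, the lower day 7 array stood more than 0.5 above the higher control array, though only *Msl2* was also above the arrays of day 3 and day 14.

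Kinases and membrane proteins made up much of the rest. *Mapk8*, which encodes the stress kinase JNK1, was at -0.24 and -0.26 in control and at 0.24 and 1.21 at day 7. The groups did not overlap, but the day 7 arrays lay farther from each other than the lower of them lay from the controls, and only 1 of its 5 probe sets was apart. *Cdk7*, the kinase of the general transcription factor TFIIH, was at -0.01 and 0.01 in control and at 0.48 and 0.45 at day 7, above all other arrays, while of its 5 probe sets 2 lay above the controls and 1 below. *Cd24a*, a surface glycoprotein of neural precursors and epithelia, was at -0.78 and -0.08 and at 0.47 and 0.43. *Kdelr3*, which returns proteins to the endoplasmic reticulum, *Pign*, an enzyme of membrane anchors, *Aph1a*, a subunit of gamma-secretase, *Limk1*, a kinase that controls actin, and *Steap4*, a metalloreductase, had differences of 0.60 to 0.90. Of the 3 probe sets of *Limk1*, 1 lay above the controls and 1 below. *Tmem40*, *Cela1*, *Samd7* and *Ccr4* completed the 15, with differences of 0.56 to 0.88. Of the 15, 7 were above all 6 other arrays. Among the 11 of these genes with over 1 probe set, only 1 had every probe set above the controls.

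The genes below the controls had wider gaps. *Plet1*, an epithelial surface protein, was at 1.33 and 1.71 on the control arrays and at -0.36 and -0.86 at day 7, a difference of -2.13 ± 0.23. *Plac8*, a cysteine-rich protein of epithelia and leukocytes, was at 0.97 and 0.79 and at -0.53 and -0.80, a difference of -1.55 ± 0.17. *Ifit1bl1*, of a family induced by interferon, was at 0.41 and 1.06 and at -1.0 and -1.55. In these 3 the groups lay more than 1 apart, and all had an adjusted p of 1. *Ifitm1*, another gene induced by interferon, was at 0.61 and 0.68 in control and at -0.63 and -0.70 at day 7, below the other 6 arrays too.

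Several of them are known from surface epithelia. *Asprv1* is a protease of the epidermis, *Psca* and *Upk3bl* encode proteins of epithelial surfaces, *Csta1* is a protease inhibitor of keratinocytes, and *Mal* and *Pglyrp1* are made by epithelia and other cells. Their differences were -1.0 to -2.01. Other genes below the controls were *Cbr2*, a carbonyl reductase (-2.07 ± 0.38), *Adh1*, an alcohol dehydrogenase (-1.78), *Gsto1*, a glutathione transferase (-1.61), and *Arg1*, the arginase of the urea cycle (-0.75). In 9 of the 15 lower genes the 3 highest arrays were both controls and day 14 replicate 1, an order that 353 of the 5555 probe sets below the controls had (6.35%), keratins included. Among those with a gap over 0.5, 31 of 45 had it (68.9%). These 45 hold the 15 named genes themselves and 8 keratin probe sets, so they give no separate comparison. Of the 20 keratin probe sets below the controls, 10 had it. Of the 20 probe sets of the ocular surface list below the controls, 8 did. Whether the lower genes come from the retina or from tissue taken with it was not tested.

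Immediate early genes lay below the controls more often than genes as a whole. Over all 18193 genes, 19.4% had a probe set above both control arrays and 21.2% had one below, and of 25 immediate early genes 14 had one below (56.0%) and 1 above. By the mean of a gene's probe sets, 12.1% of all genes lay above and 13.1% below, and 13 of the 25 lay below and none above. The difference of means was below 0 for 24 of 25, with a median of -0.13 against -0.01 over all genes. Of the 14, 8 were below all 6 other arrays.

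*Egr1*, a zinc finger factor of synaptic and light responses, was at 0.14 and -0.14 on the control arrays and at -0.83 and -1.03 at day 7, a difference of -0.93 ± 0.64. The groups lay 0.69 apart, and the day 7 arrays were the lowest of all. *Fos*, which forms the AP-1 factor with JUN proteins, was at 0.16 and -0.16 in control and at -0.52 and -0.51 at day 7. *Ier2*, a nuclear protein of the early growth response, was at -0.10 and -0.16 and at -0.52 and -0.63. The day 7 arrays agreed closely in *Fos* and *Ier2*, whereas *Klf4*, a factor of differentiation, was at 0.33 and 0.16 and at -0.24 and -1.26, with most of its difference of -0.99 on replicate 2. The day 7 mean of *Klf4* differed from that of day 3 by 0.06 and from that of day 14 by -1.07. For *Egln3*, treated below, these differences were -0.06 and -0.67. The part of tissue next to the retina in the *Klf4* values was not tested. *Dusp1*, a phosphatase that turns off MAP kinases, was at 0.04 on both control arrays and at -0.29 and -0.50 at day 7.

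Other transcription factors of the list differed by less. *Egr3* differed by -0.34, *Klf6* by -0.26 with 4 of its 5 probe sets below, *Egr2* by -0.25, *Nr4a2* by -0.21 and *Jund* by -0.15. *Klf2* and *Junb* were apart by under 0.1. The arrays of *Jun*, *Atf3*, *Nr4a1*, *Fosb* and *Arc* overlapped. *Ccn1*, a matrix protein, had 1 probe set above the controls and 1 below.

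**Figure D2:**
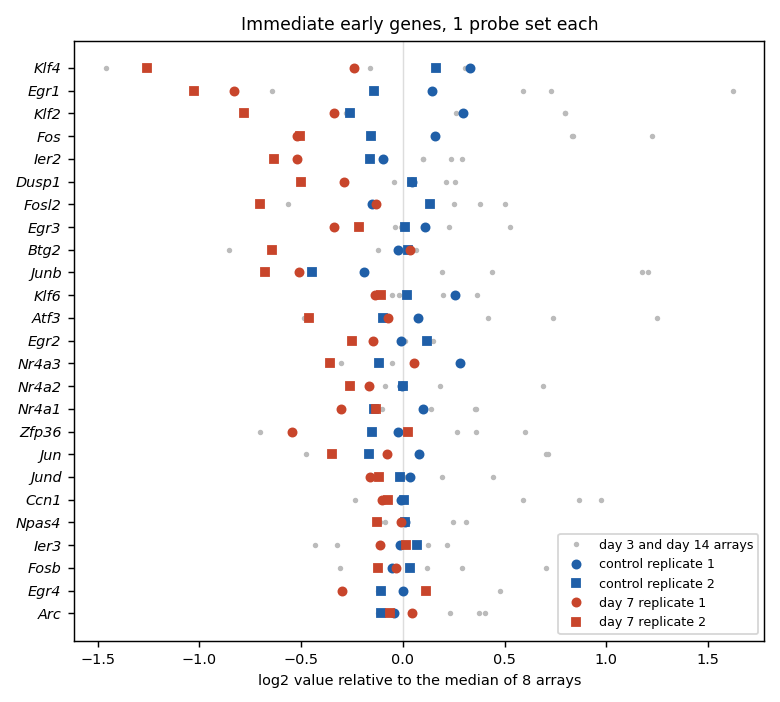
Log2 values (horizontal axis, relative to the median over 8 arrays) of the 25 immediate early genes, each by 1 probe set, from the most negative difference at the top. Blue points are control arrays, red points day 7 arrays and grey dots the arrays of day 3 and day 14. Red lies left of blue in 14 rows, with the widest gap, 0.69, in the *Egr1* row.

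TGACGTCA is the full cAMP response element, which CREB binds. The *Dusp1* promoter (chr17:26508423-26508722, minus strand, GRCm38.p6, RefSeq) is shown as that of a listed gene below the controls whose window holds the element, and the capitals mark it. In the 300 bases around the start, searched on both strands, the element was in 2 of 25 promoters of 21 listed genes (8.00%) and in 1.79% of 32851 promoters of the genome. These letters were not in the windows of *Fos*, *Junb* and *Klf4*.
Dusp1: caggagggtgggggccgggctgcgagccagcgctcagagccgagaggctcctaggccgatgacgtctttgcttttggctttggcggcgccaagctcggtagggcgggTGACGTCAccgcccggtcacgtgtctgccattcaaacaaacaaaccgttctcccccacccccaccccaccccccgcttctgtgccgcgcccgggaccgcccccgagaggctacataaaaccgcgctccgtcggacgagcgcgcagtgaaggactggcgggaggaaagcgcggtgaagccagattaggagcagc

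Genes of the HIF pathway had no common direction on the 4 arrays. Of 33 measured genes, 5 had a probe set below the controls (15.2%) and 4 had one above (12.1%), both under the shares over all genes, and the median difference was 0.01. Without day 7 replicate 1, 26 of the 33 had a probe set below, against 55.7% of all genes. The member with the widest gap was *Egln3*, whose product PHD3 is an oxygen-dependent prolyl hydroxylase and whose transcript HIF induces. It was at 0.58 and 0.88 on the control arrays and at -0.17 and -0.41 at day 7, a difference of -1.02 ± 0.19 with an adjusted p of 1. Both of its probe sets were apart in the same direction. The 3 highest arrays of this gene were both controls and day 14 replicate 1, the order seen in the surface genes above.

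Other members on the lower side were *Egln2*, the prolyl hydroxylase PHD1, at 0.01 and -0.01 in control and -0.21 and -0.23 at day 7, and *Adm*, which encodes the vasodilator adrenomedullin, at 0.15 and 0.10 and at -0.15 and -0.10. *Slc2a3*, a neuronal glucose transporter, differed by -0.30 and *Car12*, a carbonic anhydrase, by -0.15. On the higher side, *Slc2a1*, the glucose transporter of vessels and retina, was at -0.05 and 0.05 and at 0.27 and 0.28. *Vegfa*, the vascular growth factor that HIF drives, was at 0.20 and 0.21 in control and at 0.61 and 0.26 at day 7, with 1 of its 2 probe sets apart by 0.05. The glycolytic genes *Ldha*, *Pgk1* and *Hk2*, also HIF targets, had overlapping arrays and differences of -0.12, -0.03 and -0.07.

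The promoters of this list often held the core of the hypoxia response element. ACGTG was in 24 of 45 promoters of 31 genes (53.3%) and in 19.6% of all promoters, and GCGTG in 26 (57.8%) and in 32.4%, searched on both strands. GCGTG was more frequent still in the antioxidant (71.0%) and clock (73.3%) lists, where ACGTG was in 22.6% and 43.3%. The *Egln3* promoter (chr12:54203825-54204124, minus strand, GRCm38.p6, RefSeq) is printed as that of the gene with the widest gap, and its capitals mark 1 match, to ACGTG.
Egln3: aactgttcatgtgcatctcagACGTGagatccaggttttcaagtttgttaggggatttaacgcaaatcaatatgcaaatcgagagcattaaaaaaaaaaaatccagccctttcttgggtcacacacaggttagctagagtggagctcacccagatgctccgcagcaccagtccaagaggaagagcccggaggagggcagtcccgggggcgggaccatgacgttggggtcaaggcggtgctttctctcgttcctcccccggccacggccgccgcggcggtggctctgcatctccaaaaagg

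Antioxidant genes, many of them driven by NRF2, were divided. Of 28 measured, 8 had a probe set above the controls (28.6%) and 7 had one below (25%), and the median difference was 0.02. By the mean of a gene's probe sets, 3 were above and 6 below, beside 12.1% and 13.1% of all genes. *Nqo1*, a quinone reductase and a standard NRF2 target, was at -0.29 and -0.25 in control and at 0.05 and 0.50 at day 7, a difference of 0.54 ± 0.26. *Gclc*, the catalytic subunit of glutathione synthesis, was at -0.03 and 0.03 and at 0.18 and 0.21, and *Cat*, which encodes catalase, at -0.15 and -0.22 and at -0.02 and 0.46. The groups were apart in all 3, with day 7 replicate 2 the higher.

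*Hmox1*, the haem oxygenase that reports oxidative stress, was at -0.54 and -0.03 in control and at -0.02 and 0.70 at day 7, so that its groups lay 0.01 apart and its difference of 0.63 rested on 1 array. *Sod2*, the mitochondrial superoxide dismutase, differed by 0.65, also with 1 high array (0.94). *Sod1*, *Txnrd1* and *Slc7a11* differed by 0.19 to 0.20. Below the controls were *Gpx4*, the peroxidase of membrane lipids, at 0.17 and 0.04 and at -0.07 and -0.11, and *Prdx3*, the mitochondrial peroxiredoxin, at -0.07 and -0.08 and at -0.24 and -0.18. *Gsta4*, *Gsr*, *Srxn1*, *Txn1* and *Keap1*, the inhibitor of NRF2, differed by -0.20 to -0.47.

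Subunits of the respiratory chain lay below the controls more often than genes as a whole. The list's medians overlapped, at -0.03 and -0.11 on the control arrays and -0.09 and -0.25 at day 7. Of 42 measured, 19 had a probe set below the controls (45.2%) and 2 had one above, 12 were below by the mean of their probe sets, 35 had a difference below 0, and the median was -0.09. *Cox5b*, of cytochrome oxidase, was at 0.24 and 0.27 in control and at -0.02 and -0.01 at day 7, but only 1 of its 6 probe sets was apart. *Sdhb*, the iron-sulphur subunit of succinate dehydrogenase, was at -0.11 on both control arrays and at -0.27 and -0.25 at day 7, below all other arrays. *Ndufs8*, of complex I, was at 0.01 and -0.16 and at -0.29 and -0.28. In these 3 the arrays within each group agreed to within 0.2. The differences were small, from -0.05 to -0.27 among the genes below the controls in all but *Uqcrq*, which had probe sets on both sides.

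The proteasome gave a like count. Of 31 subunits, 14 had a probe set below (45.2%) and 3 had one above, 7 were below by gene means, and the median difference was -0.11. *Psma7*, a ring subunit, was at 0.01 and 0.06 in control and at -0.26 and -0.21 at day 7, with both of its probe sets below. *Psma6* was at -0.04 and -0.11 and at -0.23 and -0.24. Among 29 genes of the cytosolic ribosome, 9 were below (31.0%) and 3 above, with a median of -0.17, and *Rps7* was at 0.06 and 0.04 and at -0.10 and -0.20.

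Chaperones gave no clear direction. Of 26 heat shock and chaperone genes, 11 had a probe set below the controls (42.3%) and 1 above, but by gene means 4 were below and 1 above, near the share over all genes, and 11 differences were above 0, with a median of -0.05. *Hspa5*, the chaperone BiP of the endoplasmic reticulum, was at 0.09 and 0.07 in control and at -0.06 and -0.18 at day 7, and *Hspa8*, the constitutive chaperone HSC70, at 0.21 and 0.05 and at -0.22 and -0.05. The member above was *Hspb1*, the small heat shock protein HSP27, at -0.54 and 0.00 in control and at 0.00 and 1.92 at day 7. Its groups lay 0.01 apart and its difference of 1.23 rested on day 7 replicate 2, where the median of the lens list was also highest. Of 26 genes of the unfolded protein response, 9 were below (34.6%) and 2 above. *Chac1*, a target of the stress factor ATF4, was at 0.01 and -0.01 and at -0.38 and -0.18, and *Xbp1*, a factor of that response, differed by -0.19.

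**Figure D3:**
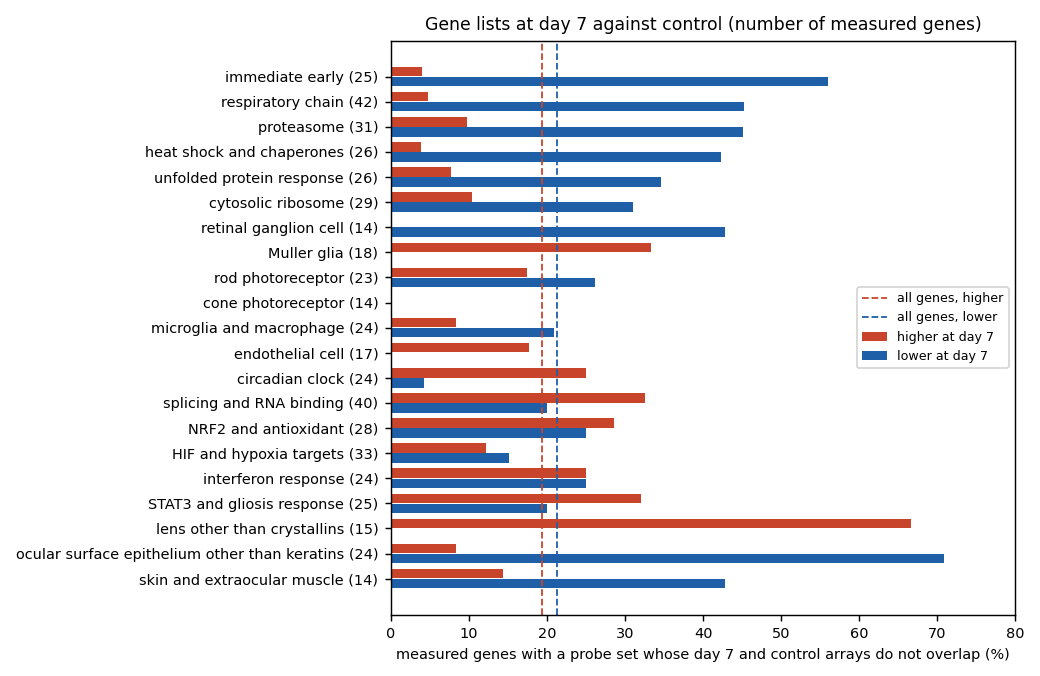
Share of the measured genes of each list (horizontal axis, %) with a probe set whose day 7 arrays both lay above (red bars) or both below (blue bars) the control arrays, with the number of measured genes in parentheses. The dashed lines are the shares over all 18193 genes, 19.4% and 21.2%. The blue bars of the immediate early, respiratory chain and proteasome lists reach 56.0%, 45.2% and 45.2%, and the Müller glia list has a red bar of 33.3% and no blue one.

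Müller glia transcripts were on the higher side. Of 18 measured, 6 had a probe set above the controls (33.3%) and none had one below, 6 were above by gene means, 16 had a difference above 0, and the median was 0.16. *Clu*, the secreted chaperone clusterin, was at -0.18 and -0.14 in control and at 0.14 and 0.18 at day 7, with all 4 of its probe sets apart. *Glul*, which turns glutamate into glutamine, was at 0.04 and 0.00 and at 0.23 and 0.25, above all other arrays, with 1 of 2 probe sets apart. In both, the day 7 arrays were within 0.05 of each other. *Rlbp1*, the retinaldehyde binding protein of the visual cycle, was at 0.18 and 0.03 and at 0.22 and 0.37.

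*Slc1a3*, the glutamate transporter of these cells, differed by 0.18, *Car14*, a carbonic anhydrase, by 0.42 and *Gpr37*, a receptor, by 0.13. The potassium channel gene *Kcnj10* (0.01) and the factor gene *Sox9* (-0.30) had overlapping arrays. The water channel *Aqp4* was at -0.03 and 0.74 in control and at 0.03 and 1.75 at day 7, so that its difference of 0.54 was within the spread of either group. Medians of this list were 0.04 and 0.03 on the control arrays and 0.18 and 0.21 at day 7. The higher side was not particular to Müller glia. The median difference was 0.22 in the astrocyte list and 0.24 in the retinal pigment epithelium list. Of 15 pigment epithelium genes, 12 had a difference above 0, but only 2 had a probe set above the controls (13.3%) and 1 had one below.

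Rod genes lay on both sides of the controls, and the ganglion cell genes that were apart lay below. Of 23 rod genes, 4 were above the controls and 6 below. *Samd7*, a protein that silences genes in rods, was at -0.05 and 0.05 and at 0.53 and 1.13, with 1 of 2 probe sets apart, and *Prph2*, the peripherin of rod discs, was at -0.49 and -0.66 and at -0.13 and 0.13. *Cnga1* and *Cngb1*, the subunits of the rod channel gated by cyclic GMP, differed by -0.13 and -0.09, and *Sag*, the rod arrestin, by -0.02. Of 14 genes of retinal ganglion cells, 6 had a probe set below (42.9%) and none above, and 3 were below by gene means. *Rbpms*, an RNA-binding marker of these cells, was at 0.12 and -0.22 in control and at -0.47 and -0.51 at day 7, below all other arrays, though only 1 of its 4 probe sets was apart. *Thy1* was at -0.02 and 0.02 and at -0.11 and -0.09.

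Cells of the immune system and vessels did not move as groups. Of 24 microglia and macrophage genes, 5 were below and 2 above, and 12 of the 24 differences were above 0. *Cx3cr1*, the fractalkine receptor, was at -0.29 and -0.23 and at -0.11 and 0.42, and *Aif1*, which encodes IBA1, was at -0.06 and -0.16 and at -0.23 and -0.27. These markers of the same cells differed in opposite directions. Of 17 endothelial genes, 3 were above the controls and none below, and *Cdh5*, the cadherin of vessels, was at -0.18 and -0.03 and at 0.10 and 0.05.

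**Figure D4:**
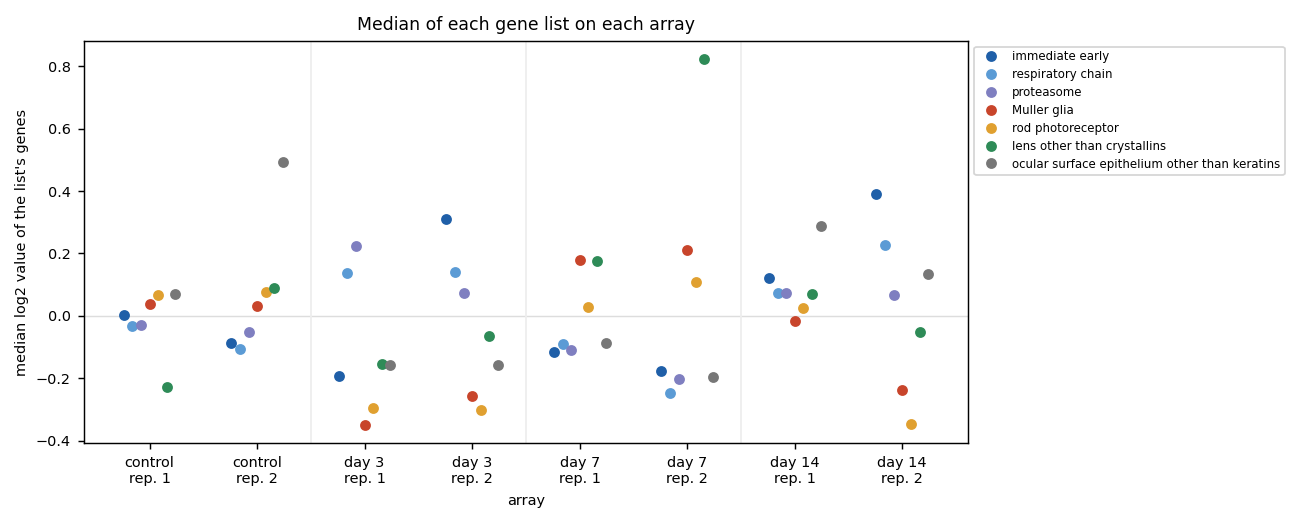
Median log2 value of the genes of 7 lists (vertical axis) on each of the 8 arrays (horizontal axis), each gene being the mean of its probe sets. The Müller glia median is 0.18 and 0.21 on the day 7 arrays against 0.04 and 0.03 in control. The respiratory chain median is -0.09 and -0.25 against -0.03 and -0.11, and these overlap. The lens median reaches 0.82 on day 7 replicate 2.

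The molecular clock had 6 of 24 measured genes above the controls (25%) and 1 below. *Bhlhe41*, a repressor of clock genes, was at -0.23 and 0.01 in control and at 0.41 and 0.57 at day 7, a difference of 0.60 ± 0.18, above all other arrays. *Ciart*, a repressor with a circadian rhythm, was at -0.13 and -0.07 and at 0.14 and 0.23. *Nr1d1*, the receptor REV-ERBα, was at -0.10 and 0.22 and at 0.27 and 0.72, with the groups 0.05 apart. *Drd4*, the dopamine receptor of photoreceptors, was the member below, with a difference of -0.14. The *Ciart* promoter (chr3:95882179-95882478, minus strand, GRCm38.p6, RefSeq) is shown because it holds 3 copies of CACGTG, the E-box that CLOCK and BMAL1 bind, in capitals. The window of *Bhlhe41* held 1 copy and that of *Nr1d1* held 0. CACGTG, which contains ACGTG, was in 6 of 30 promoters of 21 clock genes (20.0%) and in 7.15% of all promoters.
Ciart: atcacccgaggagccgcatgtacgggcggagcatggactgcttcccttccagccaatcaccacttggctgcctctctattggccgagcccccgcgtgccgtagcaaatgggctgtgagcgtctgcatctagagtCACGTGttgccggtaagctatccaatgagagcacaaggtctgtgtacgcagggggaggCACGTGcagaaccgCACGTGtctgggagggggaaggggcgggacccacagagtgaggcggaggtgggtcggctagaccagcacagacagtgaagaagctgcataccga

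Interferon genes were evenly divided, with 6 of 24 above the controls (25%) and 6 below. *Mx2*, an antiviral GTPase, was at -0.18 and -0.22 in control and at 0.19 and 0.18 at day 7, and *Bst2*, which tethers virus particles, at -0.33 and -0.20 and at 0.11 and 0.02. *Gbp2*, a GTPase induced by interferon gamma, was at -0.25 and -0.08 and at -0.44 and -0.94, and *H2-K1*, a class I histocompatibility gene, had 3 of 4 probe sets below. The arrays were apart in all of these and the directions were opposite.

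Of 25 genes of the STAT3 and gliosis response, 8 were above (32.0%) and 5 below. *Gfap*, the filament of reactive glia, was at -1.02 and -1.32 in control and at -0.88 and 0.13 at day 7 by the probe set with the widest gap, and *Edn2*, the peptide endothelin 2 that stressed photoreceptors make, was at -0.63 and -0.06 and at -0.01 and 2.07. Most of both differences (0.80 and 1.38) lay on day 7 replicate 2. *Lif*, the cytokine upstream of STAT3, differed by 0.16, and *Socs3*, its feedback inhibitor, by -0.21. Splicing and RNA-binding genes had 13 of 40 above (32.5%) and 8 below, but by gene means 3 were above and none below.

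Of the genes the study names, a list chosen on these samples, 43 were measured. By the rule used for the other lists, 9 had a probe set above the controls (20.9%) and 7 had one below (16.3%), near the shares over all genes. By the single probe set of each gene with the largest spread, for which no share over all genes was computed, 3 were above, 3 below and 37 overlapped. Those above were *Edn2*, *Gfap* and *Pex5l*, a protein that binds HCN channels. The study gives the last under the name *PEX2*, and the platform annotation names its probe sets *Pex5l*. It was at 0.51 and 0.45 in control and at 0.98 and 0.84 at day 7. Those below were *Bik*, a promoter of apoptosis (-0.19), *C1qb*, of the first complement component (-0.35), and *Wfs1*, of the endoplasmic reticulum (-0.20). *Thbs1*, an inhibitor of vessel growth, was at 0.01 and -0.01 in control and at -0.24 and 2.26 at day 7, and *Hif1a* was at -0.19 and 0.98 and at -0.24 and 2.49. Both overlapped, with 1 high day 7 array each. *C3*, a complement gene of the study, is not among the 43, since the probe set that the study lists for it has no single gene name here. That probe set was at -0.24 and -0.09 in control and at -0.02 and 2.49 at day 7. Its difference of 1.40 lay mostly on replicate 2, while the study's array values give a decrease of *C3* at day 7.

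Against the other exposures, 887 of the 5540 higher members (16.0%) and 1993 of the 5534 lower ones (36.0%) lay outside all 6 other arrays. Over all 45037 probe sets, the day 7 arrays were above all others for 2% and below for 4.43%. Tested directly with limma, day 7 against day 3 gave 0 probe sets past the adjusted threshold (lowest adjusted p = 0.347, with 5448 at an unadjusted p under 0.05), and day 7 against day 14 gave 0 (lowest adjusted p = 0.290, with 4633). Medians of the respiratory chain list were 0.14 and 0.14 on the day 3 arrays and 0.07 and 0.23 on the day 14 arrays, above the -0.09 and -0.25 of day 7. The Müller glia list ran the other way, with -0.35 and -0.26 at day 3 and -0.02 and -0.24 at day 14 against 0.18 and 0.21 at day 7. The day 3 replicate 2 and day 14 replicate 2 arrays stood apart from the rest in the 3' to 5' difference of *Gapdh*, a measure of RNA quality, at 1.19 and 1.43, while the control and day 7 arrays lay between -0.32 and 0.12. For beta-actin this measure was 0.44 and -0.33 in control. It was 0.18 on day 7 replicate 1 and -0.94 on day 7 replicate 2, the lowest of all 8 arrays. The part of this in the differences was not tested. The paper's quality measures place the highest *Gapdh* ratios on both day 14 arrays and low ones on both day 3 arrays. The paper labels them 5' to 3' ratios. The values here are 3' minus 5' differences of log2 values centred over the 8 arrays, so the measures are unlike. *Gfap* was also highest on day 3 replicate 2 and day 14 replicate 2 (2.83 and 2.58), whereas the paper lists it as unchanged at day 3. Whether each deposited label matches its array was not tested, and every comparison here rests on those labels.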

How the data were processed

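Total RNA of mouse retina was measured on 8 Affymetrix mouse genome arrays, grouped by the time on each label. The authors deposited log2 values from RMA, according to the submitters' processing notes, which give no version. Values are centred on the median of each probe set over the 8 arrays, so they hold no level and low signal could not be filtered. The methods describe MAS5 values, which were not used. After 64 control probe sets were set aside, 45037 were compared, of which 34945 name 1 gene (18193 genes). The number of arrays limits the precision. Gaps between arrays were computed in Python 3.11.15 with pandas 2.3.3. limma 3.58.1 (R 4.3.3) was fitted to all 8 arrays with a mean for each of 4 times and Benjamini-Hochberg adjustment, and tested on simulated data. Named genes are the 15 in each direction with the widest gap outside the tissue lists, up to 3 in each direction of each of 43 lists, and the genes the study names, and further list members were named after their values were seen. The members and lists were chosen with earlier results of these data known. Probe sets that name several genes are given no name, and quantitative PCR was not analysed here.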

Additional observations from a re-analysis of the deposited data

How the results depend on the processing

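Of the differences of named genes under the alternatives, 1089 kept their direction and 3 reversed, all with the mean of a gene's probe sets: *Gnb1* (-0.10), *Ccn1* (-0.0244) and *Neat1* (-0.0497). Gene means gave 4564 genes with arrays apart and 26 of these 2-fold, 12 respiratory chain and 7 proteasome genes lower, 3 HIF genes lower and 3 NRF2 genes higher. Gap thresholds of 0.25, 0.5 and 1 left 415, 46 and 12 probe sets. Leaving out 1 array at a time gave 22834 to 33185 probe sets apart, 67 to 1217 of these 2-fold, and list counts of 26 to 33 (respiratory chain), 20 to 25 (proteasome), 10 to 13 (Müller glia), 12 to 16 (NRF2) and 9 to 26 (HIF). Counts rise partly because 3 arrays overlap less often than 4: over all genes, 36.8% to 48.3% were then higher and 40.3% to 55.7% lower. Without day 7 replicate 1 the HIF count, 26 of 33, was above that share, whereas on 4 arrays it was under it. With 1 array left out, limma called 0 to 1 in each of the 3 comparisons, and the 1 call came without day 7 replicate 1 (adjusted p = 0.00527 against control). Trend and robust settings gave 14 calls for day 7 against day 14, a comparison whose alternatives were chosen after seeing the data. The 389 probe sets at an unadjusted p under 0.05 against control became 828 with quantile normalization, 145 with gene means, 658 with array weights, 1366 by analysis of variance, and 265 to 2209 with 1 array left out, the highest without day 7 replicate 1. A filter on low signal was not run, since the values hold no level.

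The labels do not say that a replicate number marks a shared batch. Deviations of same-numbered arrays correlated at 0.44 between control and day 7, and from -0.40 to 0.55 between other times. With a replicate block on 4 arrays, limma called 0 (lowest adjusted p = 0.246) with 1652 at an unadjusted p under 0.05, and on 8 arrays 0 with 362. Both same-numbered differences had 1 sign at 22767 probe sets and were 2-fold at 20.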
